A study of Homo sapiens with 6 samples.

Results

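A set of 10 genes of RNA polymerase I initiation and of the nucleolus were followed in H9 cells upon CDK9 antagonism. They are UBTF, RRN3, TTF1, BAZ2A, NCL, NPM1, NPM3, TCOF1, NOP2 and NOL3, chosen by name for their role or their nucleolar name. Each symbol matched 1 row, so that the 10 genes were found among the 61541 genes of the count table, and all 10 passed the filter on low counts that left 17678 genes for testing. Bulk RNA-seq covered H9, an established cutaneous T-cell lymphoma line with a wild-type label for genotype, in 3 libraries treated with vehicle (DMSO) and 3 treated for 4 h with AZD4573 (50 nM), a selective inhibitor of CDK9. CDK9 is the kinase that releases paused RNA polymerase II (RNAP2) into elongation. H9 is a single line, and nothing in the labels states that the 3 libraries of a group came from separate cultures, so that the p-values measure only the spread between these libraries.

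RNA polymerase I transcribes the ribosomal DNA (rDNA) repeats into the 47S precursor of the 18S, 5.8S and 28S rRNAs, and the nucleolus forms around this activity. UBTF (UBF) coats and bends the rDNA, RRN3 (TIF-IA) joins the polymerase to the selectivity factor SL1 at the promoter, and TTF1 stops the polymerase at terminators downstream of the gene. Some of the other nucleolar proteins fold, modify or package the precursor. Each of these proteins is itself encoded by an mRNA that RNAP2 makes, which is what the libraries measured.

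Total counts ranged from 70367303 to 76571157 with DMSO and from 52101868 to 63795185 with AZD4573. Of 10 T-cell markers, 9 were at 1 CPM (counts scaled to the library's depth with edgeR's TMM factors) or more in every library, CD2 was below 1 CPM, and the summed level ranged from 1301 to 1358 CPM with DMSO and from 1934 to 2014 CPM with AZD4573. Of the 4 B-cell, 4 myeloid, 3 epithelial and 4 pluripotency markers, CD79A, EPCAM, CDH1 and POU5F1 were at 1 CPM or more in every library and NANOG had no counts in any of them. The summed B-cell markers, nearly all CD79A, ranged from 55.4 to 61.3 CPM with DMSO and from 89.2 to 99.0 CPM with AZD4573. The part of these marker levels in the results was not tested. The 13 mRNAs encoded in mitochondria, whose DNA has a polymerase of its own, took a larger share of the counts with AZD4573 (4.67 to 4.98%) than with DMSO (3.04 to 3.22%). When libraries were scaled to these mRNAs, the median log2 fold change of all genes tested moved from 0.03 to -0.71, and scaling by library size alone gave -0.08. Levels and changes below are therefore relative to the other mRNAs of a library, and less mRNA from the nuclear genome cannot be told apart from more mitochondrial mRNA by these shares. In bulk libraries, fewer cells of a type and less RNA per cell of that type cannot be told apart either.

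Transcripts of the RNA polymerase I factors UBTF, RRN3 and TTF1 fell upon AZD4573 treatment, as did those of nucleolin (NCL), treacle (TCOF1) and the rRNA methyltransferase NOP2. Those of NOL3, NPM3 and NPM1 rose, although for NPM3 and NPM1 the direction turned when libraries were scaled to the mitochondrially encoded mRNAs, and those of BAZ2A did not pass the test. By edgeR's quasi-likelihood test, with p-values adjusted over all genes tested by the Benjamini-Hochberg method and a threshold of 0.05, 6 of the 10 genes were lower, where 37.4% of all genes tested were lower, and 3 were higher, where 37.3% of all genes were higher. With a fold change of at least 1.5 as well, 3 were lower (UBTF, RRN3 and TTF1) and 1 was higher (NOL3), beside 23.7% lower and 22.7% higher over all genes. The groups did not overlap for 6 lower and 3 higher genes, against 38.7% and 39.0% of all genes tested. The median log2 fold change of the 10 genes was -0.25, or -0.28 relative to the median of all genes.

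**Figure D1:**
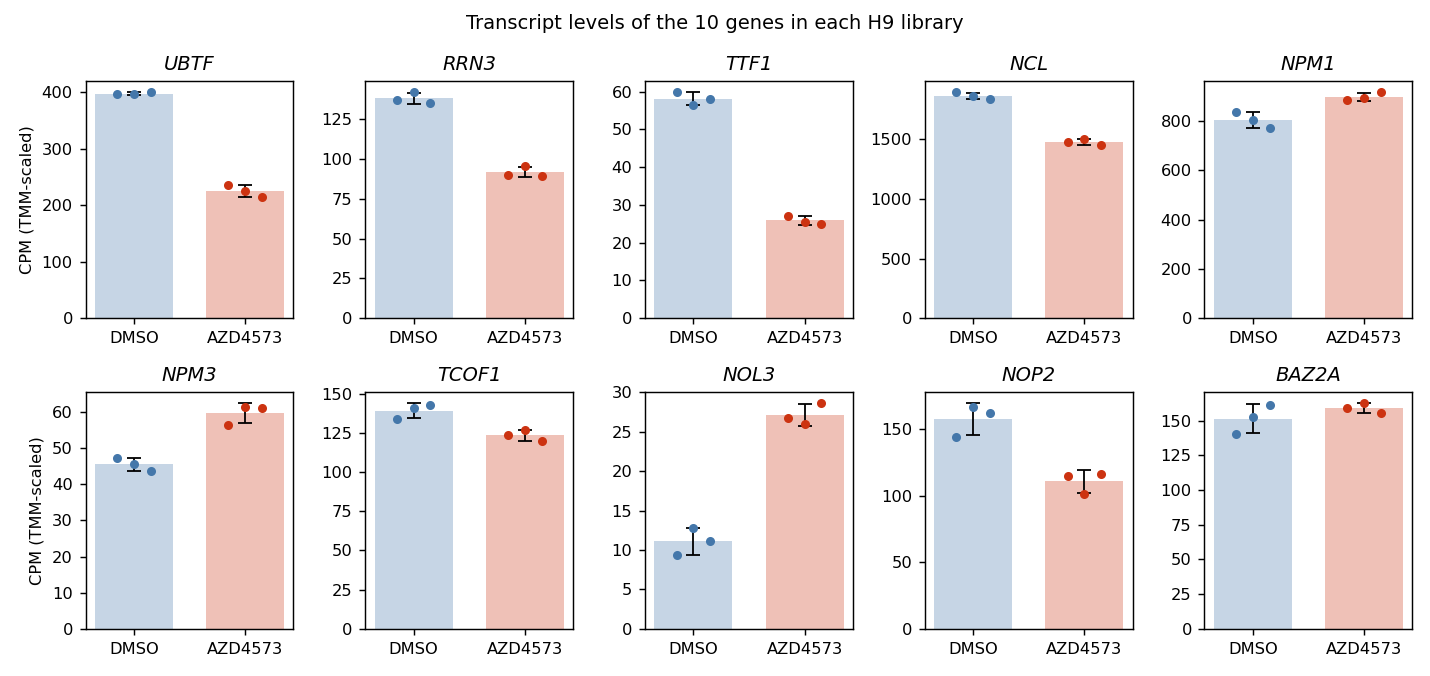
Level of each gene in CPM scaled by TMM factors (vertical axes, each from 0), by group (horizontal axis). Points are the 3 libraries of a group, bars their mean and whiskers the SD. DMSO and AZD4573 libraries are apart in every panel but that of BAZ2A, and NOL3 shows the widest relative gap, from a mean of 11.1 to 27.1 CPM.

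UBTF (ENSG00000108312, chromosome 17 of GRCh38 from 44205033 to 44221626, 21 exons in its canonical transcript) encodes the architectural factor that keeps rDNA repeats in an open, active state. Its transcripts were at 397, 397 and 400.0 CPM with DMSO and at 236, 225 and 214 CPM with AZD4573. The DMSO libraries were nearly level and the highest AZD4573 library lay far below them. The log2 fold change was -0.82 (SE, the standard error, 0.0433, adjusted p = 1.4e-09, edgeR), so that 56.5% of the DMSO level remained.

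RRN3 (ENSG00000085721, chromosome 16 from 15060033 to 15094311, 18 exons) encodes the factor that makes RNA polymerase I competent for initiation and whose activity follows growth signals through phosphorylation. Its transcripts were at 137, 142 and 135 CPM with DMSO and at 89.9, 95.3 and 89.5 CPM with AZD4573. The groups were separate, and 66.4% of the DMSO level remained (log2 fold change -0.59, SE 0.0441, adjusted p = 3.9e-08, edgeR). This value sits just past the 1.5-fold threshold. It came to lie just within it, at -0.58, without DMSO replicate 2, without AZD4573 replicate 1 or without AZD4573 replicate 3, and at -0.55 with only genes of at least 10 counts in every library, while the adjusted p stayed under 0.05 each time.

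TTF1 (ENSG00000125482, chromosome 9 from 132375548 to 132406851, 11 exons) encodes the RNA polymerase I termination factor, which also binds next to the rDNA promoter and brings chromatin remodelers there. It is not the thyroid factor that shares this abbreviation. Its transcripts fell from 59.8, 56.6 and 58.1 CPM to 27.2, 25.5 and 25.0 CPM. This was the largest fall among the 10 genes, with 44.5% of the DMSO level remaining (log2 fold change -1.17, SE 0.0536, adjusted p = 4.4e-10, edgeR), and 10.8% of all genes tested had a log2 fold change as low or lower.

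BAZ2A (TIP5; ENSG00000076108, chromosome 12 from 56595596 to 56636816, 29 exons) encodes the large subunit of the NoRC complex, which TTF1 recruits to silence rDNA repeats. Its transcripts were at 140.5, 153 and 161 CPM with DMSO and at 159, 163 and 155 CPM with AZD4573. The groups overlapped. The log2 fold change of 0.07 had a 95% interval from -0.04 to 0.18 (adjusted p = 0.22, edgeR), and scaling by library size alone gave -0.03.

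NCL (ENSG00000115053, chromosome 2 from 231453531 to 231483641, 14 exons) encodes nucleolin, an abundant RNA-binding protein that assists RNA polymerase I transcription and the first steps of precursor processing. Its transcripts had the highest CPM of the 10 genes, with 1894, 1860 and 1839 CPM with DMSO and 1480, 1503 and 1454 CPM with AZD4573. The fall was to 79.3% of the DMSO level (log2 fold change -0.33, SE 0.0401, adjusted p = 4.6e-06, edgeR), and the lowest DMSO library stayed above the highest AZD4573 library. The small nucleolar RNA genes SNORD20, SNORD82 and SNORA75 lie within NCL, and each had 0 counts in all 6 libraries. The bases of SNORA75 (137) and SNORD20 (80) are also exon bases of some NCL transcripts on the same strand, so that their reads can have been given to NCL. For SNORD82, 3 counts, taken as the limit that a count of 0 allows, correspond to at most 0.059 CPM, which covers counting error only.

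NPM1 and NPM3 encode 2 members of the nucleoplasmin family of histone chaperones, of which NPM1 (nucleophosmin) builds the outer layer of the nucleolus and moves ribosomal particles. NPM1 (ENSG00000181163, chromosome 5 from 171387116 to 171411810, 11 exons) was at 835, 804 and 771 CPM with DMSO and at 884, 895 and 917 CPM with AZD4573. The libraries of the groups did not overlap, but the gap between the highest DMSO and the lowest AZD4573 library was smaller than the range of the DMSO libraries. The log2 fold change was 0.16 (SE 0.0431, adjusted p = 0.0041, edgeR). Scaled by library size alone it was 0.06 (adjusted p = 0.17, edgeR) and -0.58 under the mitochondrial scaling.

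NPM3 (ENSG00000107833, chromosome 10 from 101781325 to 101783446, 6 exons) encodes a partner of NPM1 without its RNA-binding region. It was at 47.3, 45.4 and 43.6 CPM with DMSO and at 56.4, 61.3 and 61.2 CPM with AZD4573. No DMSO library reached the level of an AZD4573 library, with a log2 fold change of 0.39 (SE 0.0535, adjusted p = 1.6e-05, edgeR). Under the mitochondrial scaling its value was -0.35.

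TCOF1 (ENSG00000070814, chromosome 5 from 150357629 to 150400308, 27 exons) encodes treacle, which holds UBTF and RNA polymerase I together in the fibrillar centers of the nucleolus and is mutated in Treacher Collins syndrome. Its transcripts were at 134, 141 and 143 CPM with DMSO and at 124, 127 and 120 CPM with AZD4573. The fall was the smallest of those that passed the test, to 88.7% of the DMSO level (log2 fold change -0.17, SE 0.0441, adjusted p = 0.0029, edgeR).

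NOP2 (ENSG00000111641, chromosome 12 from 6556863 to 6568691, 16 exons) encodes a methyltransferase of 28S rRNA that is also needed for assembly of the large ribosomal subunit. Its transcripts fell from 144, 167 and 162 CPM to 115, 101 and 116 CPM. The groups were separate, and 70.3% of the DMSO level remained (log2 fold change -0.51, SE 0.0638, adjusted p = 7.1e-06, edgeR).

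NOL3 (ENSG00000140939, chromosome 16 from 67170154 to 67175737, 4 exons) is named as a nucleolar protein for one of its splice products, whereas its main product, ARC, is an inhibitor of apoptosis in the cytoplasm. It was the member with the lowest CPM with DMSO and, with TMM factors, the largest change, whereas TTF1 changed more with library size only (-1.27 against 1.19) and under the mitochondrial scaling (-1.91 against 0.55). Its transcripts were at 9.32, 12.8 and 11.1 CPM with DMSO and at 26.7, 26.0 and 28.6 CPM with AZD4573. Even the highest DMSO library had less than the lowest AZD4573 library, and the level rose 2.45-fold (log2 fold change 1.29, SE 0.0962, adjusted p = 3.8e-08, edgeR). Of the genes that rose, NOL3 alone stayed higher when scaled to the mitochondrially encoded mRNAs, with a log2 fold change of 0.55. Its exons share 139 of 2994 bases with KIAA0895L on the opposite strand, a gene that fell (log2 fold change -1.02, adjusted p = 6.8e-07, edgeR), and counting that ignores strand cannot separate reads from these bases.

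**Figure D2:**
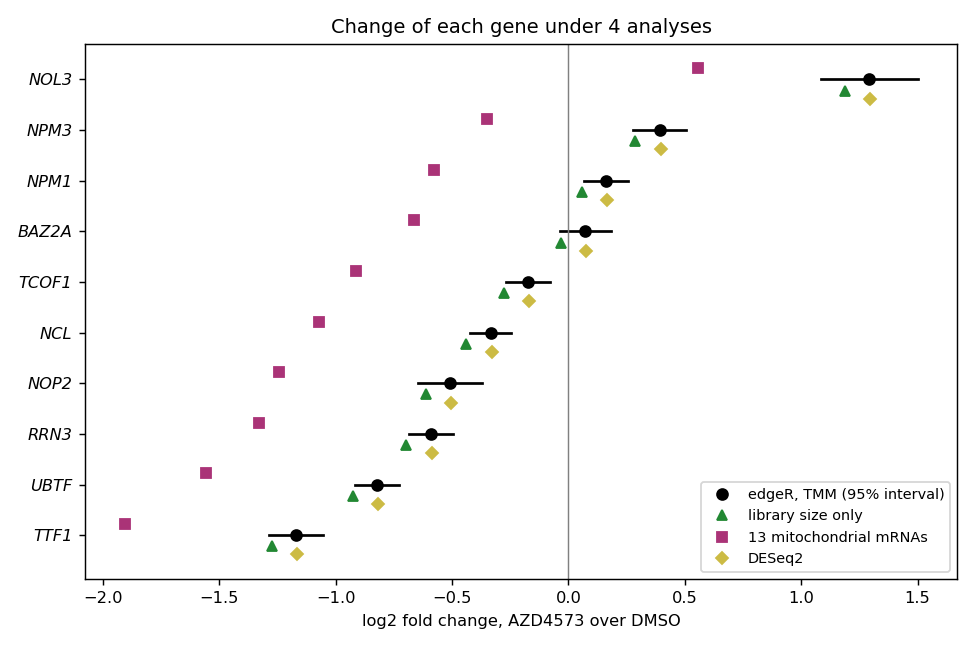
Log2 fold change of AZD4573 over DMSO (horizontal axis) for each gene (rows) from edgeR with TMM factors (circles, with 95% intervals as lines), with library size only (triangles), with libraries scaled to the 13 mitochondrially encoded mRNAs (squares) and from DESeq2 (diamonds). Scaling to the mitochondrial mRNAs moves every gene down, leaving 9 genes lower and NOL3 higher, and the order of the genes is the same under the 4 analyses.

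The order of the 10 changes was the same under each scaling, since a scaling moves all genes alike. Under the mitochondrial scaling, 9 of the 10 genes were lower, beside 67.2% of all genes tested, and 1 was higher, beside 12.1%. Relative to the median of all genes under that scaling, UBTF was at -0.85, RRN3 at -0.62, TTF1 at -1.19, NPM3 at 0.36 and NOL3 at 1.27 on the log2 scale.

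Ratios between genes of the same library do not depend on scaling, and 4 pairs were compared by role. TTF1 to BAZ2A, the terminator factor and the NoRC subunit it recruits, had log2 ratios of counts of -1.23, -1.43 and -1.47 with DMSO and -2.55, -2.67 and -2.64 with AZD4573. The ratio thus fell to 0.423 of its DMSO value, with no overlap between groups (exact permutation test, two-sided, p = 0.10, the smallest that 3 libraries against 3 allow). NPM3 gained on NPM1, with log2 ratios of -4.14, -4.15 and -4.14 with DMSO and -3.97, -3.87 and -3.91 with AZD4573, a difference of 0.23 that was several times the SD within either group (exact permutation test, p = 0.10). RRN3 to UBTF also differed by 0.23 (exact permutation test, p = 0.10), and it was higher in each AZD4573 library than in any DMSO library. NOP2 to NCL differed by -0.17 with overlapping groups (exact permutation test, p = 0.30). This overlap depends on how reads are divided between NOP2 and ENSG00000285238, a gene that shares exon bases with it. With the 2 genes summed, the difference was -0.26 and the groups did not overlap. None of the 4 can pass a threshold of 0.05 in a design of this size, also before adjustment over the pairs.

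**Figure D3:**
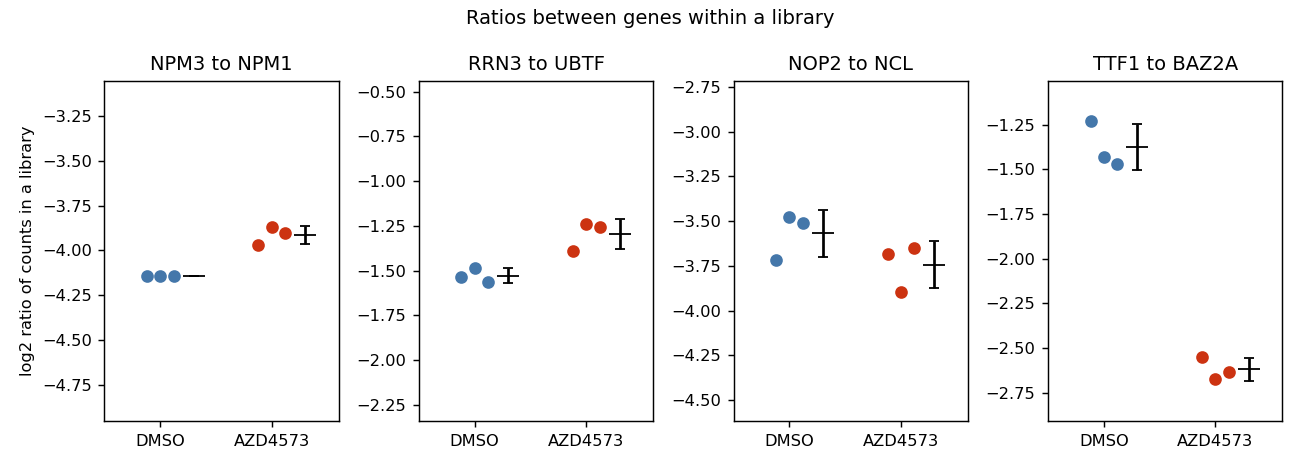
Log2 ratio of the counts of a pair of genes within a library (vertical axes, each spanning the same number of log2 units) for DMSO and AZD4573 libraries. Points are libraries, and the bars beside them the mean and SD. TTF1 to BAZ2A drops by 1.24 log2 units, and NPM3 to NPM1 and RRN3 to UBTF rise by 0.23 each. NOP2 to NCL overlaps between groups with the NOP2 counts as deposited, without the gene that shares its reads.

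NOP2 and RRN3 share sequence with other genes of the table, and their counts depend on how reads are divided. Of the 4687 exon bases of NOP2, 2550 also belong to ENSG00000285238, a gene that GENCODE marks as a read-through and that runs on the same strand. That gene was given 1304, 1060 and 1393 counts with DMSO and 37, 760 and 13 with AZD4573. It took 11.7% of the summed counts in AZD4573 replicate 2 and under 1% in both other AZD4573 libraries, and the NOP2 level of replicate 2 was the lowest of its group. With both genes summed, counts were 12590, 13272 and 13295 with DMSO and 5888, 6512 and 7085 with AZD4573, and the log2 fold change of the sum was -0.59 in place of -0.51. For RRN3, the pseudogenes RRN3P1 to RRN3P4 held 14.0 to 17.4% of the summed counts with DMSO and 21.0 to 22.3% with AZD4573. RRN3P3 fell (log2 fold change -1.33, adjusted p = 9.1e-08, edgeR) and RRN3P1 rose (0.45, adjusted p = 0.00045, edgeR), while RRN3P2 was at -0.24 (adjusted p = 0.27). The log2 fold change of RRN3 and its pseudogenes together was -0.48. Summing therefore moved RRN3 to within the 1.5-fold threshold and NOP2 past it, and the number of lower genes at that threshold stayed at 3. Pseudogenes of NPM1 held at most 1.47% and that of NCL at most 0.0537% of the summed counts, and neither value moved by more than 0.01.

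**Figure D4:**
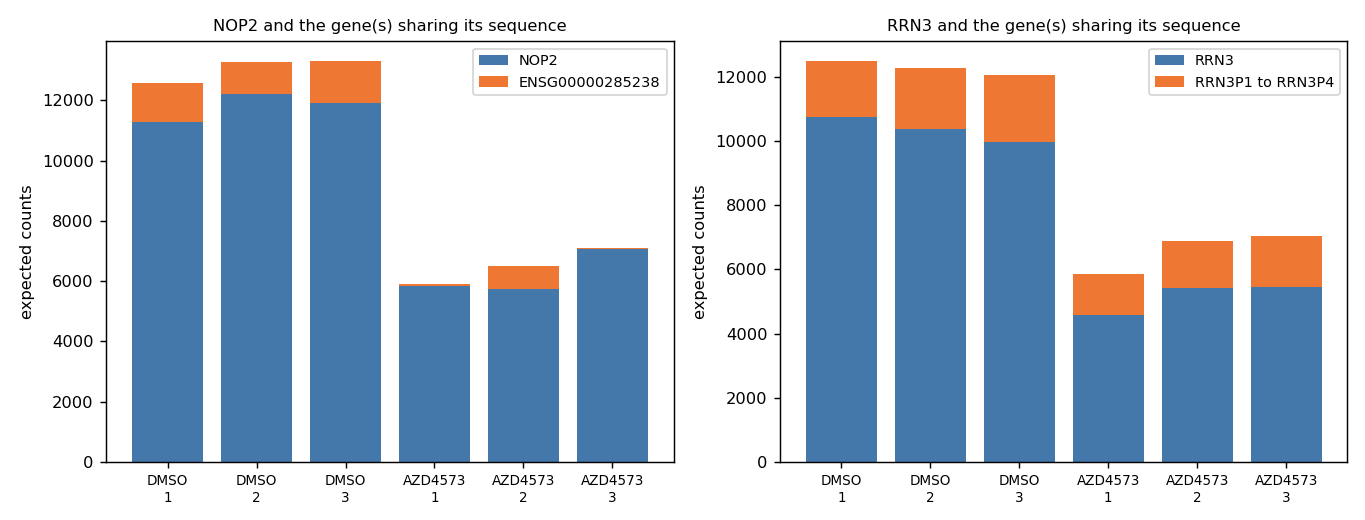
Expected counts (vertical axis) of NOP2 with the read-through gene ENSG00000285238 (left) and of RRN3 with its pseudogenes (right), stacked for each library (horizontal axis). The read-through gene takes 760 counts in AZD4573 replicate 2 and 37 and 13 in the other AZD4573 libraries, while the RRN3 pseudogenes keep between 1280 and 2106 counts in every library.

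Besides the small nucleolar RNA genes in NCL, other overlaps were smaller than that of NOP2. UBTF shares 285 of 7074 exon bases with other genes on the opposite strand, mainly with ENSG00000260793, which had 26 to 50 counts with DMSO and 114 to 206 with AZD4573. BAZ2A shares 598 of 10936 bases with RBMS2 on the opposite strand. No exon base of RRN3, TTF1, NPM1, NPM3 or TCOF1 lies in an exon of another gene of GENCODE release 44.

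Levels were compared between genes as CPM per kb of the canonical transcript, and the order depends on that length. For NPM1 and NCL it is 1320 and 3924 bases, whereas the exons of all their transcripts cover 8311 and 8919 bases. With the latter lengths NCL, which had the higher CPM, would come before NPM1. With DMSO, NPM1 (609 ± 24.3, SD, n = 3) was first and NCL (475 ± 7.03) second, followed at a distance by UBTF (83.0 ± 0.379), NOP2 (59.4 ± 4.53), NPM3 (49.9 ± 2.02), RRN3 (37.2 ± 0.915) and TCOF1 (27.7 ± 0.965). TTF1 (18.5 ± 0.515) and BAZ2A (16.9 ± 1.16) had overlapping libraries, and NOL3 was last (8.20 ± 1.29). With AZD4573, NPM3 (65.5 ± 3.09) moved ahead of UBTF (46.9 ± 2.28), and TTF1 (8.23 ± 0.360) became the lowest of the 10. RRN3 (24.7 ± 0.868) and TCOF1 (24.6 ± 0.733) then had overlapping libraries, and all other neighbors were apart. NCL and NPM1 together made up 70.1 to 71.9% of the summed CPM of the 10 genes with DMSO and 73.9 to 74.5% with AZD4573. NPM3 and NOL3, both among the higher genes, have the shortest spans of the 10, at 2.12 and 5.58 kb, whereas the span of NPM1 is 24.7 kb. That of the lower genes ranges from 11.8 (NOP2) to 42.7 kb (TCOF1), and BAZ2A, which did not pass the test, spans 41.2 kb. A relation between span and change was not tested.

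Sequences upstream of the start sites are shown for the transcription factors that fell (UBTF, RRN3 and TTF1) and for NCL, NPM1 and NPM3, which span the range from a fall to a rise among the abundant or related nucleolar genes. Each is the part of the 250 bases upstream of the RefSeq start on GRCh38.p14 that lies in no exon, taken at the start of the canonical transcript and read 5′ to 3′. Only the NPM3 stretch therefore reaches the start itself. The bases nearest the start that were left out number 154 for NPM1, 75 for UBTF, 67 for NCL and 11 for TTF1. For RRN3, 151 bases on both sides of the stretch were left out. Capitals mark the CCAAT box (CCAAT) and the GC box (GGGCGG) on either strand.
UBTF (chr17:44219751-44219925, minus strand): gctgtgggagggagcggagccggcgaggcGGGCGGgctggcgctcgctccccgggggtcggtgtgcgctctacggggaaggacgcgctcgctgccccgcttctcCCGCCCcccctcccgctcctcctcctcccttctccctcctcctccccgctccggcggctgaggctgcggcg
RRN3 (chr16:15094312-15094410, minus strand): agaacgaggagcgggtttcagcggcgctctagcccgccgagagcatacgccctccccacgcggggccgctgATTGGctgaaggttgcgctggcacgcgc
TTF1 (chr9:132406852-132407090, minus strand): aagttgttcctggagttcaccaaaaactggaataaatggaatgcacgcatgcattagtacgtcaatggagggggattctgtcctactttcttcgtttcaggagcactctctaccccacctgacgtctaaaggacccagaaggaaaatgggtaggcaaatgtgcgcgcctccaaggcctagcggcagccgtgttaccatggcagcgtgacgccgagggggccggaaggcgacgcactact
NCL (chr2:231464552-231464734, minus strand): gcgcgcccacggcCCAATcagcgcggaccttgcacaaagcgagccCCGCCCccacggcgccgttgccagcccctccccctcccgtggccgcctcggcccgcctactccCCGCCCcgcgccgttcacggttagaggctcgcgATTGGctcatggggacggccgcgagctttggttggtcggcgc
NPM1 (chr5:171387599-171387694, plus strand): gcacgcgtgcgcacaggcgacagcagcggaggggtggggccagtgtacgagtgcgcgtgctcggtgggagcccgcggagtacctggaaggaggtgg
NPM3 (chr10:101783447-101783696, minus strand): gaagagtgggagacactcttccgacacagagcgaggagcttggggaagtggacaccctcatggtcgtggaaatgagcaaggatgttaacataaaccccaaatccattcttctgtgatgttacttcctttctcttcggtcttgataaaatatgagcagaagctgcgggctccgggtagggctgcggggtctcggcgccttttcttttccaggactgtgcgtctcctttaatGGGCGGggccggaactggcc

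The UBTF stretch holds 2 GC boxes, that of NCL 2 GC boxes and 2 CCAAT boxes, that of RRN3 1 CCAAT box and that of NPM3 1 GC box. Neither motif is in the stretches of TTF1 and NPM1. RefSeq windows were at hand for 9 of the 10 genes (14 windows with alternative starts), not for TCOF1. Over whole windows of 250 bases and both strands, the GC box was in 7 of 14 windows against 42.6% of all 35116 windows, and the CCAAT box in 3 of 14 against 32.0%. The E-box CACGTG, the site of MYC and related factors, was in none of the 14 windows against 6.34% of all windows, and the TATA box TATAAA in none against 10.7%. A match or its absence describes these letters only.

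The other genes of the system were examined through 7 lists written by role, which hold 84 genes, of which 82 were tested. At an adjusted p under 0.05 (edgeR), 53 were lower, where 37.4% of all genes tested were lower, and 22 were higher, where 37.3% of all genes were higher, with a median log2 fold change of -0.45 beside 0.03 for all genes tested. Under the mitochondrial scaling, 79 were lower and none was higher, beside 67.2% and 12.1% of all genes, so that every rise named in the next paragraphs turned negative under that scaling. With library size only, 55 were lower and 16 higher, so that not every rise passed the test there. The median of all genes tested also moved down under that scaling, to -0.08, and the shares of all genes were not computed for it.

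The shares of all genes tested hold as background for each list, some of which have only a few genes. Of 13 RNA polymerase I subunits, 10 were lower and 3 higher, with a median log2 fold change of -0.40. POLR1G, a subunit specific to RNA polymerase I, fell from 78.6 ± 0.977 to 12.6 ± 1.36 CPM (SD, n = 3), or -2.65 on the log2 scale (SE 0.0688, adjusted p = 9.9e-12, edgeR). POLR1E, its partner in the enzyme, had a log2 fold change of -1.27. POLR1D, which RNA polymerase III shares, rose by 0.69 and POLR2E, which all 3 polymerases share, by 0.22 on the log2 scale. Of the 5 subunits of SL1, the factor that recognizes the rDNA promoter and to which RRN3 binds, 4 were lower and none was higher (median -0.62). TAF1A fell from 21.2 ± 1.14 to 4.61 ± 0.538 CPM (SD, n = 3), or -2.20 on the log2 scale, and TAF1B fell by 1.04 on the log2 scale.

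Of 15 tested factors of rDNA chromatin and elongation, 9 were lower and 4 higher (median -0.43). SIRT1, a deacetylase that takes part in rDNA silencing, fell from 60.7 ± 2.41 to 11.2 ± 0.343 CPM (SD, n = 3), or -2.44 on the log2 scale, and ERCC6, a remodeler that also acts in DNA repair, had -1.76. HDAC1 (0.47) and TOP1 (0.28) rose. SMARCA5, the ATPase that forms NoRC with BAZ2A, had a log2 fold change of -0.50 (adjusted p = 5.9e-08, edgeR), where BAZ2A itself was at 0.07.

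Of the 17 tested upstream regulators of RNA polymerase I, 7 were lower and 7 higher, with a median of 0.05, which is close to the shares of all genes tested (37.4% lower and 37.3% higher). RPS6KB1, the S6 kinase downstream of mTOR, was lower, at -1.04 on the log2 scale. MAPK3 (ERK1), a kinase that phosphorylates UBTF and RRN3, rose by 0.60. MYC, which raises RNA polymerase I activity and the transcription of UBTF, NCL and NPM1, was at 653 ± 2.10 and 733 ± 61.2 CPM (SD, n = 3), or 0.17 on the log2 scale (SE 0.0542, adjusted p = 0.014, edgeR).

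Among 18 other nucleolar proteins, 14 were lower and 4 higher, with a median log2 fold change of -0.54. GNL2, a GTPase of large-subunit assembly, fell from 110 ± 3.94 to 26.3 ± 1.29 CPM (SD, n = 3), or -2.06 on the log2 scale, and NOL11, which acts in both rDNA transcription and processing, had -1.70. Fibrillarin (FBL), the methyltransferase of box C/D particles, rose by 0.43 and NOP53 by 0.38. Of 8 rRNA methyltransferases and partners, the functional relatives of NOP2, 5 were lower and 2 higher (median -0.78). FTSJ3 (-1.65) and EMG1 (-1.12) fell, and BUD23 (0.23) and TRMT112 (0.20), which work as a pair, rose. Of the 6 genes of the 5S particle and MDM2, the ubiquitin ligase that this particle binds, 4 were lower and 2 higher. The assembly factors HEATR3 (-2.97) and RPF2 (-1.80) fell, while the ribosomal proteins RPL11 (0.58) and RPL5 (0.54) rose.

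**Figure D5:**
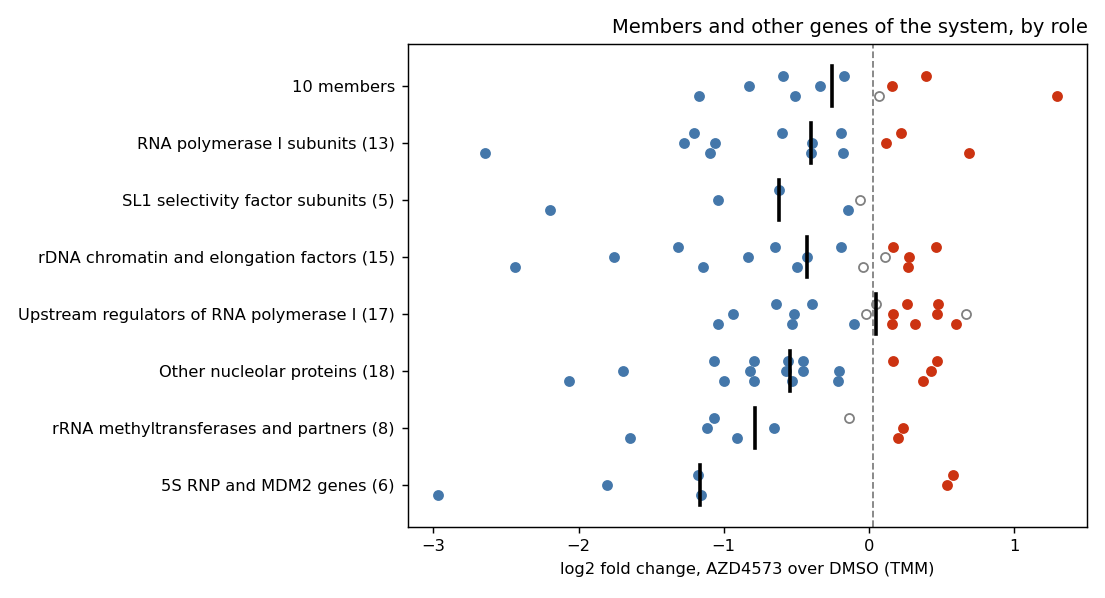
Log2 fold change of AZD4573 over DMSO (horizontal axis, TMM factors) of the 10 genes and of the 7 lists (rows, number tested in brackets). Each point is a gene, blue where lower and red where higher at an adjusted p under 0.05 and open where it did not pass, black ticks are list medians and the dashed line is the median of all genes tested (0.03). The medians of 6 of the 7 lists lie to the left of that line, and no listed gene stays higher under the mitochondrial scaling.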

How the data were processed

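RNA was measured in 6 H9 libraries, 3 per group, grouped by their labels. The authors trimmed reads with cutadapt 2.3, aligned them with STAR 2.7.8a to GRCh38 (ENSEMBL) and deposited expected counts per gene from RSEM 1.3.3, run at its defaults, which ignore strand, as whole numbers without normalization. Poly(A) RNA is named in the labels, but rRNA depletion in the supplemental methods. The table also holds 5 reporter rows with 0 counts, which were left out.

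The expected counts were compared in R 4.3.3 with edgeR 4.0.16 (filterByExpr, minimum count 10, TMM, quasi-likelihood test, Benjamini-Hochberg over 17678 genes). Alternatives were RLE factors, library size only, mitochondrial scaling, no filter, a minimum of 10 counts in each of the 6 libraries, leaving out single libraries, a replicate block, DESeq2 1.42.0, a 2-fold threshold and members summed with genes sharing their reads. Ratios used log2 counts with a prior count of 2 and exact permutation tests. Standard errors are of log2 fold changes. Gene positions, exons, overlaps and canonical transcripts came from GENCODE release 44 (GRCh38), and upstream sequences from RefSeq (GRCh38.p14).

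The members and lists were chosen with earlier results of these data known. Named were all 10 members, MYC, and in each list up to 2 lower and 2 higher genes with the largest change at an adjusted p under 0.05 and at least 10 CPM in the higher group. Genes sharing reads with members were named beside them, and SMARCA5, the partner of BAZ2A, was added after its values were seen. Some genes that the rule names are not reported here. The procedure was tested on simulated data. No pair of libraries was a copy (within groups, chi-square over its degrees of freedom was 5.51 to 20.5).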

Additional observations from a re-analysis of the deposited data

How the results depend on the processing

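Of 134 values computed for the 10 genes under the alternatives, 129 stayed on the same side of the threshold with the same sign, 1 lost its call and 4 reversed. With library size only, NPM1 was at 0.06 and no longer passed the test (adjusted p = 0.17, edgeR) and BAZ2A reversed to -0.0332. Scaled to the mitochondrially encoded mRNAs, NPM1 reversed to -0.58, NPM3 to -0.35 and BAZ2A to -0.67, which follows the shift of all genes. That scaling also left 1 higher gene in place of 3, beside 12.1% of all genes tested, and left 0 higher genes among the other genes of the system. At a fold change of at least 1.5 it gave 7 lower and 0 higher genes. The median of all genes tested was -0.71 there, itself past that size, and the shares of all genes at that size were not computed. The scaling that gives amounts per cell was not tested. With a stricter rule of at least 2-fold, 1 gene (TTF1) was lower in place of 3, and 1 (NOL3) stayed higher. The shares of all genes tested at 2-fold were not computed. The log2 ratio of RRN3 to UBTF was 0.34 in place of 0.23 with the RRN3 pseudogenes summed in, a step that adds counts to RRN3 alone. That of NOP2 to NCL was -0.26 in place of -0.17 with ENSG00000285238 summed into NOP2. The sum of NOP2 with ENSG00000285238, and the same sums for RRN3, NPM1 and NCL, were chosen after seeing the data.

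With each library left out in turn, the calls at an adjusted p under 0.05 did not change for any of the 10 genes. At 1.5-fold as well, 2 or 3 genes were lower, since RRN3 missed that size in 3 of the 6 fits. RRN3 ranged from -0.63 to -0.58, UBTF from -0.86 to -0.79, TTF1 from -1.21 to -1.15 and NOL3 from 1.17 to 1.40. The difference in the ratio of NOP2 to NCL ranged from -0.25 to -0.10, with the value nearest 0 without AZD4573 replicate 2. The labels do not state whether the replicate numbers pair the libraries. Deviations of same-numbered libraries from their group means correlated at -0.00724, 0.0707 and -0.0203. These values show no pairing, but with 3 libraries per group they cannot exclude one. With the number as a replicate block, no call among the 10 genes changed, with 6 lower and 3 higher, and NOP2 stayed at -0.51.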
